A study of Mus musculus with 12 samples.

Results

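Preparations of mouse mammary epithelial cells carried very different amounts of lymphocyte RNA, and 12 expression arrays were ordered by that amount. The score of an array was the mean log2(intensity + 16) of 4 probe sets, which read Cd3d (a chain of the T cell receptor complex), Ms4a1 (the B cell surface protein CD20), Ccr7 (the receptor that guides lymphocytes into lymph nodes) and Il7r (the interleukin-7 receptor of naive T cells). The 4 arrays with the highest score, called rich here, were set against the 4 with the lowest, called poor, whatever their genotype. The remaining 4 arrays lay in the middle. The arrays were thus selected on measured values, so every difference between rich and poor is a description of these arrays and carries no test.

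The cells came from female FVB/N mice, an inbred strain. One genotype, called control here, carried MMTV-rtTA alone, a transgene in which a mouse mammary tumour virus promoter drives a doxycycline-dependent activator in mammary epithelium. The other, called p190B, carried MMTV-rtTA together with TetO-p190B-IRES-luciferase, in which the activator switches on p190B, a GTPase-activating protein encoded by Arhgap5. Doxycycline was given to all mice, controls included, in chow at 2 g/kg over 7 days that began when they were 5 weeks old, and epithelial cells were taken at 6 weeks. Each genotype has 6 arrays, labelled as biological replicates. No label gives a count of lymphocytes, a sort or a statement on lymph nodes.

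The mouse mammary fat pads contain lymph nodes, and the inguinal node lies inside the gland that is most often collected. A node holds B cells in follicles, T cells around them, macrophages and dendritic cells along its sinuses, and high endothelial venules through which lymphocytes enter from blood. Lymphocytes also live within the mammary ducts and stroma. In bulk RNA such as this, fewer cells of a type and less RNA per cell cannot be told apart.

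Rich arrays were 1 control and 3 p190B preparations, and poor arrays 2 of each genotype. From the lowest score upward, the poor arrays were p190B replicate 1 at 6.60, control replicate 5 at 7.66, p190B replicate 3 at 8.37 and control replicate 2 at 9.30. The middle arrays were p190B replicate 6 (9.30), control replicate 1 (10.05), control replicate 6 (10.06) and control replicate 3 (10.80), and the rich arrays p190B replicate 5 (10.82), p190B replicate 2 (11.51), control replicate 4 (11.53) and p190B replicate 4 (11.54). The edges were close: p190B replicate 6 stood 0.004 above the highest poor array and p190B replicate 5 stood 0.018 above the highest middle array. Values of 4 arrays are given below in this same order of score.

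The score followed all 4 marker probe sets. Cd3d intensity was 14.3, 130.2, 245.9 and 543.3 on the poor arrays and 2159.4, 2958.5, 2709.5 and 3160 on the rich ones. Ms4a1 ran from 64.7 to 197.3 on the poor and from 1338.9 to 2654.8 on the rich arrays. Ccr7 spanned 147.8 to 1624.4 and 2058.1 to 5858.2, and Il7r 206.8 to 786.1 and 1732 to 2905, in the same order of groups. None of the 4 probe sets overlapped between the groups, which the choice of arrays fixes in large part.

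**Figure D1:**
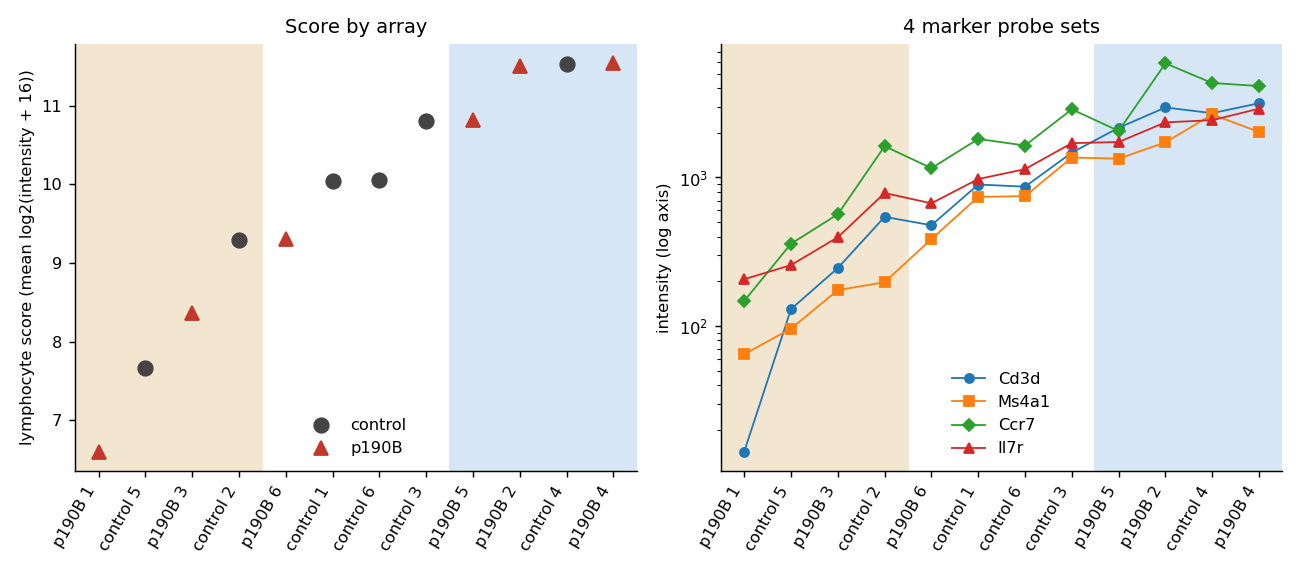
Lymphocyte score (left, mean log2(intensity + 16)) and intensity of the 4 marker probe sets (right, log axis) on the 12 arrays, ordered by score; circles are control and triangles p190B in the left panel, and shading marks the 4 poor (tan) and 4 rich (blue) arrays. Scores run from 6.60 to 11.54 without a clear step at either edge, and both genotypes are found in the poor and in the rich group.

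Epithelial markers were bright on all 12 arrays. Epcam, an epithelial adhesion molecule, lay between 22468.9 and 29888.3 on the 12 arrays, and Krt8 and Krt18, the paired keratins of luminal cells, between 38759.8 and 47660.6 and between 40811.9 and 53565.1. Krt14, the keratin of basal cells, ran from 8342.3 to 14981.3. These probe sets are among the brightest on the arrays, so they show that epithelial RNA was present on rich and poor arrays, and not that its share was the same; the luminal and basal lists described further on had medians of −0.21 and −0.22. Array medians were 7.67 to 7.83 on the log2 scale. The log2 ratio of the 3′ to the 5′ Actb control probe sets, a measure of RNA integrity, was 0.25 to 0.59 on poor and 0.28 to 0.35 on rich arrays, and the 18S rRNA control probe set at the 3′ end read 4266.3 on p190B replicate 3 and 725 on p190B replicate 1, against at most 440.4 on the other 10 arrays. Both of these are poor arrays, and the part of RNA quality in the results was not tested; counts without them are given beside the counts.

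The transgene's own gene differed between rich and poor arrays on some of its probe sets. Arhgap5 is read by 4 probe sets. Probe set 1450897_at read 5827.6, 5325.8, 5187.8 and 5228 on the poor and 4181.9, 3802.1, 4601.2 and 4136 on the rich arrays, a log2 difference of −0.37 with no overlap, and 1457410_at ran from 562 to 824.8 and from 347.2 to 441.6, a difference of −0.70. The other 2 overlapped, with differences of −0.11 (1423194_at) and −0.37 (1450896_at). None of the 4 met the rule for a call used below, and 4.02% of all tested probe sets lay wholly higher in poor arrays. By genotype, 1423194_at read 1201.2 to 1635.1 on p190B and 831.1 to 1318.8 on control arrays. The others overlapped widely between p190B and control: 3802.1 to 5827.6 and 4573.1 to 5601.3 (1450897_at), 347.2 to 824.8 and 356.9 to 604.4 (1457410_at), and 651.1 to 1064.4 and 761.1 to 1283.5 (1450896_at).

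Almost all large differences between the groups were higher in rich arrays. A probe set was called when the group means differed by at least 2-fold (a log2 difference of 1 or more) and the 4 and 4 values did not overlap. Of 27018 probe sets tested, with the 4 marker probe sets left out, 443 were called higher in rich arrays (1.64%) and 10 higher in poor arrays (0.037%). Without regard to size, 1589 (5.88%) lay wholly higher in rich and 1085 (4.02%) wholly higher in poor arrays. At 4-fold the counts were 172 and 0, and at 8-fold 29 and 0.

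The 443 probe sets included 370 with 1 gene symbol, which named 295 genes, 15 with several symbols and 58 that are unnamed here. Their median log2 difference was 1.70, beside −0.01 over all tested probe sets. The mean of the 4 middle arrays lay between the poor and rich means for 440 of the 443, at a median of 53.3% of the way from poor to rich. A probe set picked for a wide gap leaves much room for a value inside it, so this is a description and no support. All 443 were also higher in rich than in poor arrays within each genotype. The rule of no overlap makes this certain, since both groups hold both genotypes. The 61.3% of all tested probe sets that kept one sign is therefore no yardstick for it. The median difference of the 443 was 1.82 within p190B (3 rich, 2 poor) and 1.63 within control (1 rich, 2 poor). Without p190B replicates 1 and 3, an alternative added after seeing the data, 440 were called higher in rich and 14 higher in poor arrays, and 400 of the 443 were among them.

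**Figure D2:**
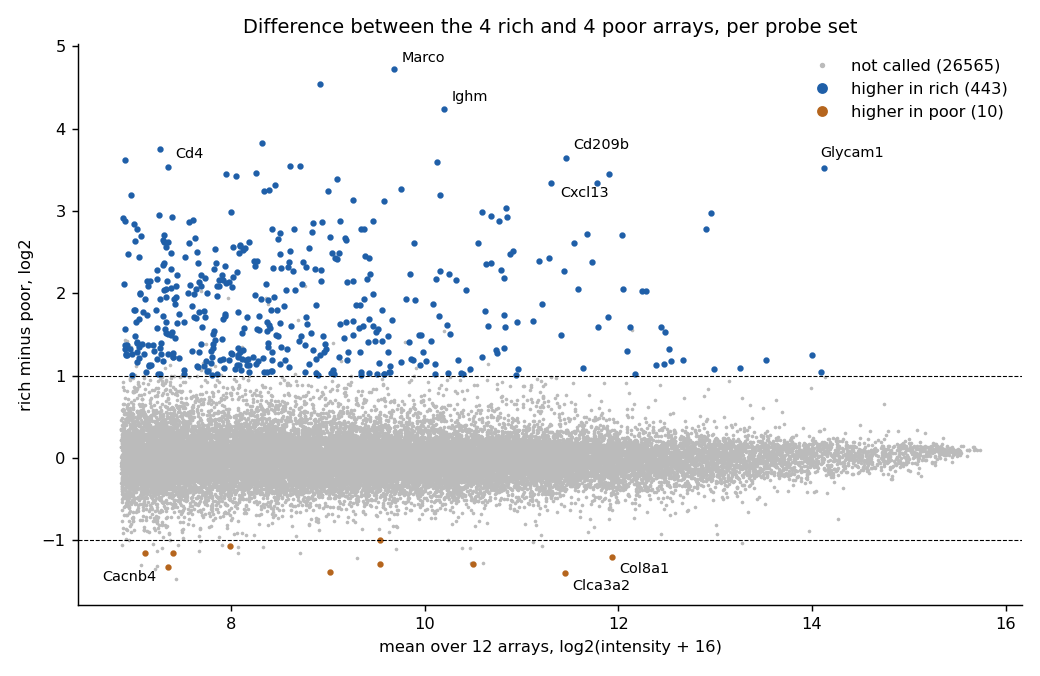
Difference between the means of the 4 rich and 4 poor arrays (log2, vertical axis) against the mean over 12 arrays (log2(intensity + 16), horizontal axis) for each tested probe set; blue points were called higher in rich (443), tan points higher in poor (10), grey points neither, and dashed lines mark the 2-fold limit. The spread is one-sided: differences reach 4.72 upward and −1.40 among the calls downward.

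Just inside the threshold stood Acap1 at 1.004, Inpp5d at 1.008, Fermt3 at 1.009 and Ifnar1 at 1.010. Just outside stood Havcr2 at 0.998, Ripor2 at 0.997, Plxnc1 at 0.997 and Nrros at 0.993. These values are given for the probe sets nearest the limit, and Acap1, Fermt3 and Plxnc1 have further probe sets that were called.

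B cell genes were higher together in rich arrays. Of 20 genes named on the list for the B cell receptor and B cell identity, 18 were bright enough to be tested and 16 were called, against 1.64% of all probe sets; the median over the 20 was 2.23. The list was drawn up with earlier results of these arrays known, and it describes the same arrays that the score chose. Ighm, the heavy chain of IgM, read 246.4, 261, 222.6 and 275.5 on the poor arrays and 7743.7, 5981.2, 2913.7 and 4730.1 on the rich ones by probe set 1427351_s_at. The poor arrays were level with one another, the rich array from a control mouse was the lowest of its group, and the log2 difference was 4.24. Of the 7 tested Ighm probe sets, 2 were called, and the other 6 beside the largest gave 0.90 to 2.93.

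Cd79a, which carries the signal of the B cell receptor, read 42.6, 47, 94.6 and 185.7 on poor and 716.3, 762.8, 1121.6 and 986.6 on rich arrays (3.24). Cd37, a tetraspanin of mature B cells, gave 25.1, 35.3, 35.3 and 187.7 against 515.3, 740.4, 1027.4 and 671.8 (3.42). In both, control replicate 2 was the highest poor array and control replicate 4 the highest rich one. Cr2, the complement receptor of follicular B cells and follicular dendritic cells, differed by 2.93. Fcrl1, an Fc receptor-like protein of B cells, differed by 3.75, from 7.8 to 77 on poor and from 378.5 to 686.8 on rich arrays, so its poor values sat at the dim end where log2(intensity + 16) shrinks folds. The second probe set of the score gene Ms4a1 differed by 3.82 and that of Il7r by 1.94; these share their gene with the score.

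Not every B lineage gene followed. Ebf1, the B lineage transcription factor that stromal and fat cells also express, gave 0.01 by its brightest probe set, and Blnk, the linker behind the B cell receptor, gave 0.43. Pax5, which sets B cell identity, fell below the filter on dim probe sets, with −0.47 near background. Immunoglobulin variable segments were among the largest differences: Igkv8-30 at 3.59 and Ighv14-2 at 3.39. Such probe sets can read several near-identical segments, so the segment named is uncertain.

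T cell genes were called as widely. Of 20 named genes, 17 were tested and 15 called, beside 1.64% of all probe sets. Some, such as Cd4, passed the filter only through arrays outside the poor group. The median over the 20 was 2.45. Cd4, the coreceptor of helper T cells, read 25.7, 22.7, 19 and 59.3 on poor and 405.2, 453.1, 526.5 and 703.1 on rich arrays, a log2 difference of 3.54. Cd8b1, a chain of the coreceptor of cytotoxic T cells, read 26.3, 73.2, 52.5 and 109.7 against 650.2, 932.1, 762 and 925.6, a difference of 3.45. For both coreceptors the highest poor array was control replicate 2 and all rich arrays lay far above it.

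Cd2, an adhesion molecule of T and NK cells, differed by 2.85. Cd6, a scavenger receptor of T cells, gave 3.40 but was too dim on average to be tested. Zap70, the kinase behind the T cell receptor, was read in opposite directions: its brightest probe set, 1439749_at, gave −1.09 with overlap, and probe set 1422701_at gave 2.62. Thy1, which fibroblasts and basal epithelium also carry, gave 0.41.

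Genes of naive lymphocyte homing and survival were mixed, with 9 of 16 called, beside 1.64% of all probe sets. Lef1, a transcription factor of naive T cells, ran from 61.3 to 260 on poor and from 620.6 to 1046.6 on rich arrays (2.74). Gimap7 (2.58) and Gimap3 (2.17), GTPases that keep lymphocytes alive, and Itgb7 (2.19), an integrin chain of homing to mucosa, were also called. Those not called included Klf2 (0.31), S1pr1 (0.49), Cxcr4 (0.27) and Foxo1 (0.01), each of which other tissues also express.

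Regulatory and activated T cell genes were called in 5 of 6 tested, beside 1.64% of all probe sets. Ctla4, the brake on T cell costimulation, read 5, 64.1, 75.4 and 265.5 on poor and 511.3, 1165, 862.9 and 1145.8 on rich arrays (3.46). Icos, a costimulator of follicular helper and regulatory T cells, differed by 3.26, and its other 2 tested probe sets by 2.49 and 3.11. Tnfrsf4, the receptor OX40, differed by 1.53. Pdcd1 gave 1.43 with overlap between the groups and was not called. Foxp3 and Il2ra, which define regulatory T cells, lay below the filter, at 0.50 and 1.09.

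NK and cytotoxic genes were called in 10 of 12 tested, beside 1.64% of all probe sets, with smaller differences and a median of 1.36. Ccl5, a chemokine of cytotoxic cells, read 893, 630.9, 1436.2 and 3226.5 on poor and 6002, 13440.5, 7506 and 8443.4 on rich arrays (2.72), and p190B replicate 2 stood highest. Klrd1, a chain of an inhibitory receptor for MHC, differed by 1.61, and Il2rb, a chain of the interleukin-2 receptor, by 1.69. Prf1, which encodes perforin, gave −0.13 and Gzma, a granule protease, 0.98, and neither was called.

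The balance of T and B cells moved little beside their sum. The mean of the T cell list minus that of the B cell list ran from −0.49 on control replicate 5 to 0.21 on p190B replicate 2, while each list by itself spanned 6.52 to 9.49 (T) and 6.91 to 9.61 (B). Levels of different probe sets are not comparable, so the sign of this balance has no meaning and only its range across arrays is a measurement. It was −0.39, −0.49, −0.34 and 0.03 on the poor arrays and −0.31, 0.21, −0.38 and 0.03 on the rich ones, which overlap.

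Plasma cell genes split, with 2 of 7 tested called, beside 1.64% of all probe sets. Jchain, which joins IgA and IgM into polymers, read 219.2, 370.6, 180.2 and 186.6 on poor and 2453.4, 2094.7, 886.2 and 2237.1 on rich arrays (2.88). The control rich array had the lowest of the 4 rich values, and the middle array control replicate 1, at 1285.2, stood above it. Mzb1, a chaperone of marginal zone B and plasma cells, differed by 2.38 and was level across the rich arrays, from 807 to 935.1. The other 5 tested members were not called: Igha gave 0.81, Irf4 0.86, Prdm1 0.05, Derl3 0.42 and Eaf2 0.33. Igha was highest on p190B replicate 2 at 4211, beside 1029.9 to 2181.5 on the other rich arrays and 766 to 1710.5 on the poor ones.

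The largest difference of all was in a macrophage gene on none of the lists. Marco, a scavenger receptor of sinus and marginal zone macrophages, read 10.1, 101.5, 256 and 154.8 on poor and 3234, 1196.7, 3697.8 and 4645.3 on rich arrays, a log2 difference of 4.72 that was the largest among tested probe sets. That rank leans on p190B replicate 1, whose 10.1 lies under the 16 added before taking logs. The second Marco probe set gave 4.54. Cd209b, the lectin SIGN-R1 of the same macrophages, read 509.8, 533.4, 958.8 and 567.7 against 7816.3, 3625.1, 10189.6 and 13908.3 (3.65). In both genes p190B replicate 2 was the lowest rich array although its score was among the 3 highest, and the middle array control replicate 6 read 4192.6 for Marco and 11752.5 for Cd209b, above 3 of the 4 rich arrays.

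A few further genes that also had p190B replicate 2 lowest among the rich arrays were picked for it, after their values were seen. Timd4, a receptor for dead cells on resident macrophages, read 288.1 to 556.6 on poor arrays, 3471.7, 1955.3, 4546 and 5395.3 on rich arrays and 5120.2 on control replicate 6 (2.99). Spic, a transcription factor of splenic and nodal macrophages, differed by 2.66, and Stab2, an endocytic receptor of sinus endothelium, by 1.29. Their order over the remaining rich arrays was not that of Marco: the larger Spic probe set read 939.9 on control replicate 4 and 932 on p190B replicate 4, and Stab2 read 321.3 and 387.7 there beside 372.8 on p190B replicate 5. Control replicate 6 was the highest of all 12 for Stab2, at 416. Vsig4, another receptor of resident macrophages, was dim, gave 0.40 without a call and ran the other way: control replicate 6 was its lowest array, at 53.1, and p190B replicate 2 at 123.6 stood above control replicate 4 at 86.4 and p190B replicate 4 at 103.5.

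Among macrophage genes of tissue in general, 1 of 13 tested met the rule, beside 1.64% of all probe sets. It was Aif1, a cytoskeletal protein of macrophages, at 1.28. Lyz2, which encodes lysozyme, read 9735.5 to 15177.4 on poor and 22900.2 to 26334 on rich arrays, just short of the limit at 0.98. Csf1r, the receptor for macrophage growth factor, gave 0.33, Mrc1 (the mannose receptor) 0.11, Adgre1 (F4/80) 0.02 and Cd163 −0.53. The list median of 0.33 stood beside −0.01 over all tested probe sets, and 7 of its 13 members lay higher in all rich than in all poor arrays, beside 5.88% of all tested probe sets.

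Among stromal and venule genes 4 of 8 were called, beside 1.64% of all probe sets. Cxcl13, the chemokine that draws B cells into follicles, read 501.6, 421.6, 861 and 1312.1 on poor and 7690.9, 6873.2, 7643.5 and 6868.6 on rich arrays (3.34). The rich arrays were level, the poor arrays were not, and the middle arrays ran between them from 2258.3 to 5055.9. Chst4, a sulfotransferase of high endothelial venules that builds the ligand of L-selectin, differed by 2.26, and Bst1, an ectoenzyme of nodal stroma, by 1.20. Madcam1 gave 0.47, Il7 0.52, Tnfsf13b 0.55 and Ltbr −0.29, none of them called. Tnfsf11, the cytokine RANKL of activated T cells, nodal stroma and hormone-sensing luminal cells, named after its values were seen, differed by 2.62, from 11 to 78.5 on poor and from 248.4 to 561.9 on rich arrays.

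The size of the Glycam1 difference rested on 1 array. Glycam1 encodes a mucin that is made both in high endothelial venules, as a ligand of L-selectin, and in mammary epithelium, as a milk protein. Its intensity was 4.4 on p190B replicate 1, and 15429.2, 18656.8 and 33234 on the other poor arrays, against 40866, 44896, 40171.7 and 46133.1 on the rich arrays. The log2 difference of 3.52 became 1.02 without p190B replicate 1, still past the 2-fold limit and without overlap, and 0.92 without p190B replicates 1 and 3, short of it. It was 6.15 within p190B and 0.83 within control. On p190B replicate 1 the milk genes Wap and Ltf were within the range of the remaining arrays, with Wap at 821.1 beside 336.3 to 4945.4 elsewhere.

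**Figure D3:**
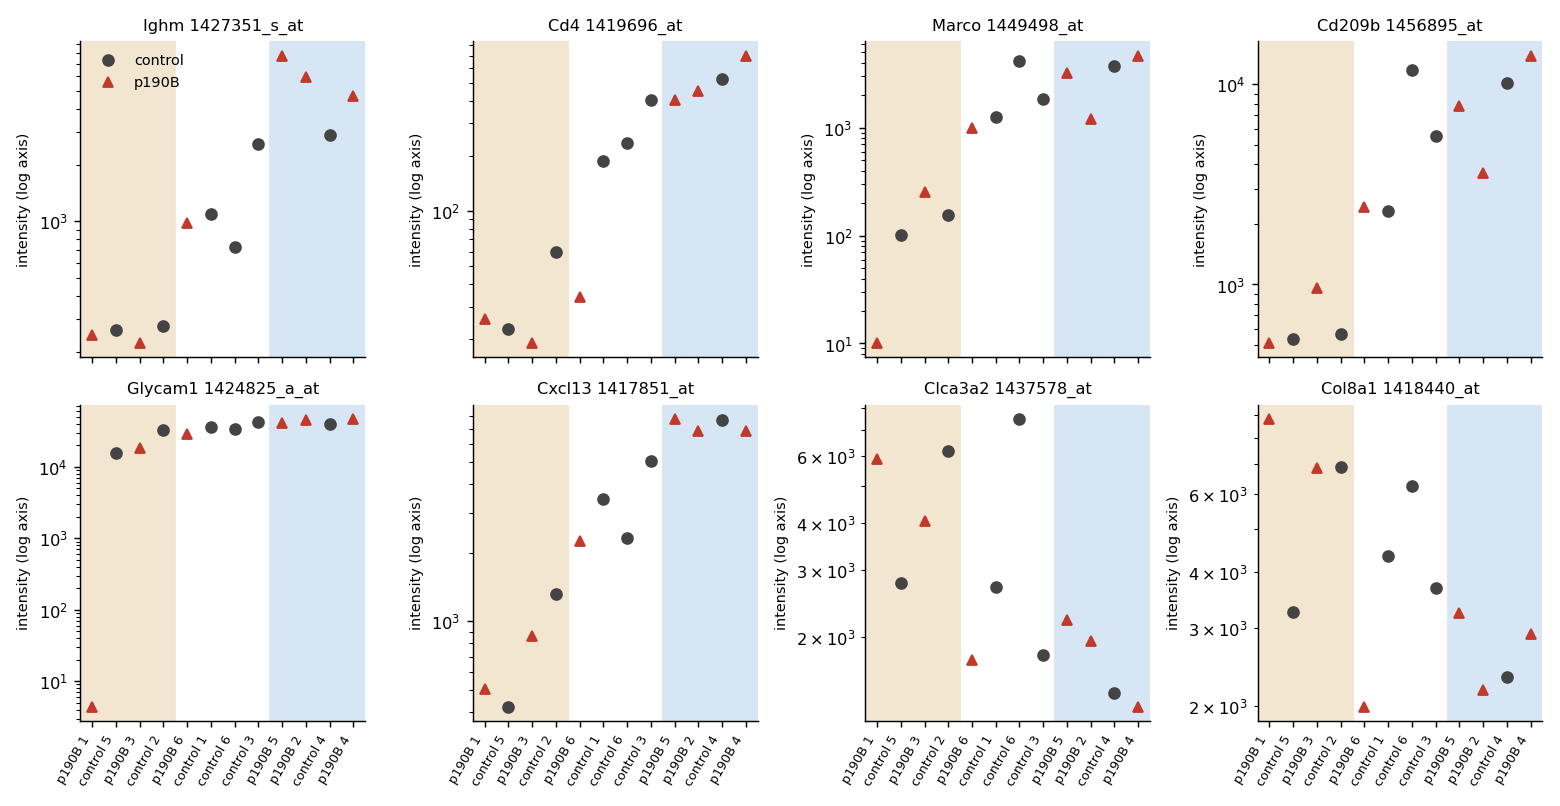
Intensity (log axis) of 8 probe sets on the 12 arrays, ordered by lymphocyte score; circles are control, triangles p190B, and shading marks the poor (tan) and rich (blue) arrays. Ighm, Cd4 and Cxcl13 climb with the score, Marco and Cd209b also peak on control replicate 6, Glycam1 stands apart on p190B replicate 1 only, and Clca3a2 and Col8a1 are higher on the poor arrays but also high on control replicate 6.

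Antigen presentation genes were called in 7 of 9 tested, beside 1.64% of all probe sets. H2-Ob, a chain of the MHC class II regulator DO of B cells, read 96.5, 205.5, 149.8 and 252.8 on poor and 1115.4, 1058, 1875.6 and 1412.8 on rich arrays (2.88). H2-Ab1, a chain of a classical class II molecule, was bright on all arrays and differed by 1.20, from 3336.2 to 5514.8 and from 8687.7 to 11128. Ciita, the activator of class II genes, gave 0.33 and Cd74, the invariant chain, 0.84, and neither was called. Of the pan-leukocyte list 12 of 15 were called, beside the same 1.64%, with Ptprc (CD45) at 2.03, Cd52 at 2.38 and Coro1a at 2.27.

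Dendritic cell genes were called in 2 of 10 tested, beside 1.64% of all probe sets. Siglech, a lectin of plasmacytoid dendritic cells, read 86.4, 101.3, 204.9 and 247.9 on poor and 682.7, 509.4, 878.8 and 1152.5 on rich arrays (2.27), with 1048.8 on control replicate 6. Ccl22, a chemokine of mature dendritic cells that attracts T cells, differed by 2.68 and was highest on p190B replicate 2, at 2359. These genes put p190B replicate 2 at opposite ends of the rich arrays. Xcr1, which marks cross-presenting dendritic cells, gave 2.59 below the filter, and Itgax, which encodes CD11c, gave 0.42. Of neutrophil and mast cell genes 2 of 9 were called, beside the same 1.64%: S100a9 at 2.30 and Ngp at 1.17.

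Of lymphatic vessel genes 0 of 6 tested were called; at the 1.64% of all probe sets so short a list would seldom hold a call, so the count says little. Lyve1, a hyaluronan receptor of lymphatic endothelium and some macrophages, gave 1.61 with overlap: it read 670.1, 1843.8, 780.6 and 614.9 on poor and 2709.1, 1665.2, 4027 and 2968.1 on rich arrays. The single overlap was between control replicate 5 and p190B replicate 2. Prox1, the transcription factor that defines lymphatic endothelium, gave 0.36, and Reln gave −0.30.

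**Figure D4:**
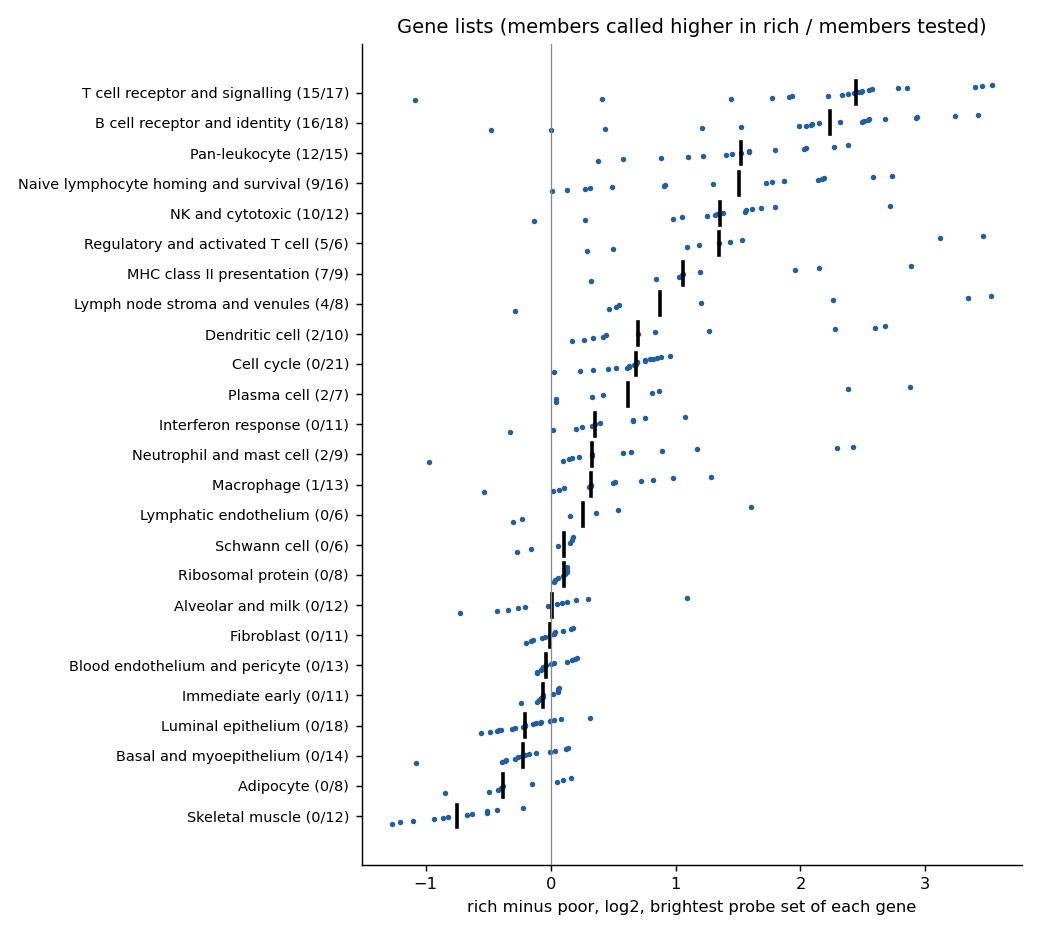
Difference between rich and poor arrays (log2, horizontal axis) for each gene of the 25 lists, read by its brightest probe set; points are genes, black bars list medians, and the numbers give members called higher in rich over members tested. T cell, B cell, pan-leukocyte and naive lymphocyte lists lie farthest to the right, and epithelial, fat and muscle lists lie at or left of 0.

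Genes of 9 lists gave no call in either direction: 0 of 100 tested, beside 1.64% and 0.037% of all probe sets. At those shares 100 genes would hold few calls, so the count of 0 says little. The 9 lists were the luminal, alveolar and milk, basal, fibroblast, adipocyte, blood vessel, skeletal muscle, Schwann cell and lymphatic lists. The list of nodal stroma and venules, with its 4 calls, is not one of them. Without regard to size, 3 of 14 basal, 2 of 12 alveolar and milk and 1 of 18 luminal genes lay wholly higher in poor arrays, beside 4.02% of all tested probe sets. None of the 9 lists had a member wholly higher in rich arrays. The medians were −0.21 for 18 luminal genes, −0.22 for 14 basal genes, 0.01 for 12 alveolar and milk genes, −0.01 for 11 fibroblast genes and −0.04 for 13 blood vessel genes. The last 3 have no settled sign: over the alternatives they ran from −0.07 to 0.08, from −0.10 to 0.03 and from −0.18 to 0.09. Luminal genes were lower in rich arrays for 15 of 18 members and basal genes for 11 of 14. The median over all tested probe sets was −0.01, so a value below 0 is common and these counts are descriptions. All arrays were deposited with the same trimmed mean, and the part of that scaling in these small shifts was not tested.

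Cdh1, which encodes E-cadherin, read 12549.1, 15430.5, 11308 and 15716.1 on poor and 9663.6, 8227.4, 10296.8 and 8957.1 on rich arrays, a log2 difference of −0.56 without overlap. Cdh3, the P-cadherin of basal cells, gave −1.07, and 48.9 on control replicate 4 was far from its other rich values of 143.5 to 285.6. Aldh1a3, an enzyme of luminal progenitors, gave −0.73 without overlap, and Gata3, the master regulator of luminal fate, −0.43 with overlap. Krt14, the basal keratin, gave −0.36. Wap, a whey protein, gave 1.09 with overlap and was high on 2 rich arrays only, p190B replicate 5 at 4945.4 and p190B replicate 2 at 3014.3.

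Skeletal muscle genes had a median of −0.75, beside −0.01 over all tested probe sets, and all 12 were lower on average in rich arrays. None was called. At the 0.037% of all probe sets called higher in poor arrays, that count says little. Myl1, a myosin light chain, read 2336.6, 3917.7, 4536.5 and 1655 on poor and 338.7, 1368.3, 3150.3 and 1314.2 on rich arrays. Control replicate 4 was as high as the poor arrays and p190B replicate 5 far below them, so the groups overlapped. Within control the difference for Myl1 was 0.30 and within p190B −1.92. Adipocyte genes had a median of −0.38, with Adipoq, the fat cell hormone adiponectin, at −0.42.

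Cell cycle genes had positive differences for 21 of 21 members, with a median of 0.68 beside −0.01 over all tested probe sets. None was called. At the 1.64% of all probe sets so short a list would seldom hold a call, so that count says little. Rrm2, a subunit of ribonucleotide reductase, read 1073.6, 2900.6, 1840.7 and 1077 on poor and 2760.9, 4613.8, 2752.9 and 2569.1 on rich arrays (0.96), with control replicate 5 inside the rich range. Plk1, a mitotic kinase, gave 0.82, but 0.09 within control. The median was 0.26 when the arrays at both edges were exchanged. It was also 0.26 when every array was scaled to the same median, but that setting made the same exchange of arrays. The 2 settings are therefore not separate checks. Interferon response genes had a median of 0.35 with 10 of 11 positive, ribosomal protein genes 0.11 and immediate early genes −0.06. The sign of the last turned in 5 of 21 alternatives, up to 0.03 with the edge arrays exchanged.

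The 10 probe sets higher in poor arrays named 6 genes, and their differences were small. Clca3a2, a chloride channel regulator, read 5879.6, 2786.1, 4041.9 and 6160 on poor and 2225.4, 1959.1, 1425.6 and 1313.9 on rich arrays (−1.40). The closely related Clca3a1 gave −1.28, and the probe sets of both may share transcripts. Col8a1, a short-chain collagen, read 8814.2, 3254, 6867.9 and 6878.6 against 3240.2, 2168.7, 2317.8 and 2906.9 (−1.20), so control replicate 5 and p190B replicate 5 nearly touched. Cacnb4, a calcium channel subunit, gave −1.32, Kera, the proteoglycan keratocan, −1.06, and Dst, the linker dystonin, −1.001. Further tested probe sets gave less and were not called: −0.88 for Clca3a2, −0.24 for Cacnb4, −0.64 for Clca3a1 and −0.67 to −0.40 for the other 3 of Dst. Further probe sets of Col8a1 gave −1.15 and −1.03, past the 2-fold limit, and were not called because the groups overlapped. The called Dst probe set was at −0.61 without p190B replicates 1 and 3.

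This direction was less settled than the other. The middle array control replicate 6 read 7480.3 for Clca3a2, higher than any poor array. The middle mean lay between poor and rich for 8 of the 10. The count of 10 rose to 52 without control replicate 5 and to 35 without p190B replicate 5. It was 22, 21 and 18 without p190B replicate 4, p190B replicate 2 and control replicate 4. Fewer arrays make the rule of no overlap easier to meet, so such rises are in part built into the rule. With all 8 arrays and overlap allowed, 35 probe sets were 2-fold or more higher in poor arrays. With quantile normalisation the count of calls was 2 and with a pseudocount of 64 it was 1. Both also put p190B replicate 6 in place of control replicate 2 among the poor arrays. The parts of the scale and of that exchange were not told apart.

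Of the 295 genes higher in rich arrays, 89 were on one of the 25 lists and 206 on none. The ones among the 15 largest that were on no list were Marco, Fcrl1, Cd209b, Il22ra2, Ighv14-2, Igkv8-30 and the second Ms4a1 probe set. Il22ra2, a secreted decoy receptor for interleukin-22 that dendritic cells make, read 21.4, 59.4, 130.5 and 251.5 on poor and 1423.3, 747.9, 1887.3 and 967.1 on rich arrays (3.55). Cd69, which holds activated lymphocytes in tissue and was named after its values were seen, differed by 2.74.

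The upstream sequence of the genes higher in rich arrays was described as well. Promoters of the RefSeq gene models on GRCm38.p6, the reference mouse genome and not that of FVB/N, were found for 219 of the 295 genes and for 10254 of 12768 named genes with a tested probe set. The 250 bases before a gene's start were searched on both strands. The letters AGGAAG, the core that ETS factors such as PU.1 and ETS1 prefer, were present for 124 of 219 genes (56.6%), beside 32.4% of all tested genes and 32.3% of the 27025 genes in the promoter table. TGTGGT, the core bound by RUNX factors, was present for 53 (24.2%), beside 13.0% of tested genes and 15.9% of the promoter table.

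The octamer ATTTGCAT, known from immunoglobulin promoters, was present for 7 of 219 (3.20%), beside 1.53% of tested genes and 1.81% of the promoter table. The palindrome of the B lineage factor EBF1 was present for 2 (0.913%), beside 1.23% and 0.914%. Among the 12 B cell list genes with a promoter that were called, 5 held AGGAAG, 2 TGTGGT, 1 the EBF1 palindrome and 0 the octamer. Among 10 such T cell list genes, 5 held AGGAAG and 0 held any of the other motifs. Upstream GC content also differed, with a median of 51.2% over 280 promoters of genes higher in rich arrays and 59.6% over 13185 promoters of tested genes, and its part in the motif shares was not tested. A match is only a match of letters, and these data do not measure binding.

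The stretches below are the 150 bases before the start of 4 genes of B cells and sinus macrophages that showed large differences. They were picked from promoters with a match in these bases, so the presence of a match in each is fixed by the choice. AGGAAG or its complement CTTCCT is in capitals, read 5′ to 3′ on the gene's own strand.
Fcrl1, chr3:87376237-87376386, plus strand: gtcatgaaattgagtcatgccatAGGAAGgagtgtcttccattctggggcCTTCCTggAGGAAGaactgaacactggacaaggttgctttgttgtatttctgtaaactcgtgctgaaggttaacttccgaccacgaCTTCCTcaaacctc
Marco, chr1:120505025-120505174, minus strand: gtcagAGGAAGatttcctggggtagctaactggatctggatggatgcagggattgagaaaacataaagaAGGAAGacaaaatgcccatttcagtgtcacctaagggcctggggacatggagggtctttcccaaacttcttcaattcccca
Cd37, chr7:45238840-45238989, minus strand: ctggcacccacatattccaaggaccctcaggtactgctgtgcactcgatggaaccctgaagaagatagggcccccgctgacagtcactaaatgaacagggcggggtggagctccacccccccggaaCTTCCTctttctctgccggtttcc
Cd79a, chr7:24897347-24897496, plus strand: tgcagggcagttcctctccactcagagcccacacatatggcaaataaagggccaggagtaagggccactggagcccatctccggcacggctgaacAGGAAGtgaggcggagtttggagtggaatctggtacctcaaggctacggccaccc
Fcrl1 held 4 matches in its window, Marco 2, and Cd37 and Cd79a 1 each. The match nearest to the start began 14 bases upstream in Fcrl1, 24 in Cd37, 55 in Cd79a and 81 in Marco.

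Genotype was set against the score next, because the labels of genotype played no part in choosing the arrays. The score averaged 9.69 ± 1.97 in p190B and 9.90 ± 1.33 in control preparations (SD, n = 6 each), and p190B arrays spanned 6.60 to 11.54 and control arrays 7.66 to 11.53. The difference of −0.21 gave p = 0.807 in an exact two-sided permutation test over 924 assignments, and shifts from −2.46 to 1.93 were not rejected at 95%. A difference of several fold in either direction was therefore not detectable with 6 arrays each. The sign turned to 0.41 without p190B replicate 1, to 0.12 without control replicate 4 and to 0.05 without p190B replicate 3, and it was 0.89 without p190B replicates 1 and 3 (p = 0.319, exact permutation).

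None of the 443 and 10 probe sets passed a comparison of genotypes. In limma over 27022 probe sets, 10 passed an adjusted p of 0.05 (0.037%), and 0 of these were among the 453. At an unadjusted limma p under 0.05 there were 2518 of all probe sets (9.32%) and 0 of the 443. The standard error of the genotype difference had a median of 0.42 among the 443 and 0.12 among all tested probe sets. The same genotype difference thus carried a larger error in the 443. These probe sets were picked for a wide gap between groups that each hold both genotypes, which makes the spread within each genotype large, so the counts of 0 and the larger error are fixed in large part by the choice and are no evidence on genotype.

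Adding the score as a covariate narrowed that error. The median standard error among the 443 went from 0.42 to 0.17, smaller for 443 of 443, while over all probe sets it went from 0.124 to 0.117. Since the score comes from the same arrays and chose the groups that gave the 443, the narrowing is a description. With the covariate 71 of the 443 (16.03%) had an unadjusted limma p under 0.05, beside 3089 of all (11.4%), and 0 passed after adjustment, with a smallest adjusted p of 0.133.

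**Figure D5:**
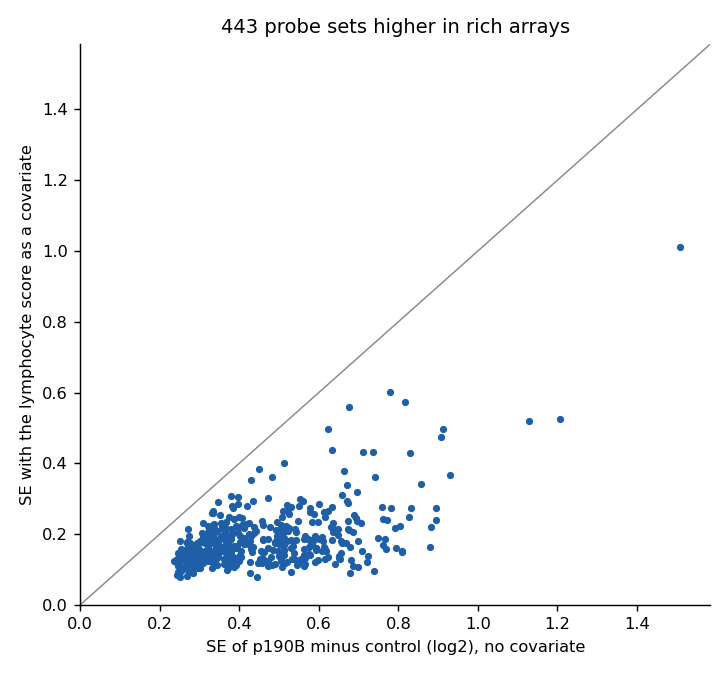
Standard error of the p190B minus control difference (log2) for the 443 probe sets higher in rich arrays, from limma without a covariate (horizontal axis) and with the lymphocyte score as a covariate (vertical axis); the grey line marks equal values. All points lie under the line, with medians of 0.42 and 0.17.

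Outside the probe sets called between rich and poor arrays, the covariate moved the number of genotype calls. With it, 40 probe sets passed the limma test at an adjusted p of 0.05 (0.148%). In p190B 6 of these were higher and 34 lower, and all 10 of the fit without it were among them. Cdh1 was one of those added: its difference was −0.48 (SE 0.13, limma adjusted p = 0.233) without and −0.51 (SE 0.08, limma adjusted p = 0.0394) with the covariate. Gja1, the gap junction protein connexin 43, gave −0.68 (SE 0.12, limma adjusted p = 0.0673) and −0.70 (SE 0.10, limma adjusted p = 0.0209). Odc1, the first enzyme of polyamine synthesis, gave −0.37 and −0.36, with limma adjusted p of 0.0535 and 0.0228.

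The differences of the 40 moved by at most 0.03. Their standard errors were smaller with the covariate for 27 and larger for 13, and the ratio of the error with to that without it ran from 0.66 to 1.02 with a median of 0.96. All 40 kept their sign in every alternative of the covariate fit. They were picked on these same arrays for differences that were large beside their errors, so the kept signs are no support. The count did not hold: it lay between 4 and 64 in fits that omitted one array, was 1 without p190B replicates 1 and 3, 7 without the filter on dim probe sets, 22 with equal medians, 81 with quantile normalisation and 24 with the mean of the T and B cell lists as the covariate. The limma adjusted p of Cdh1 ran from 0.0408 to 0.121 over the fits that left out 1 array, and was 0.277 without p190B replicates 1 and 3.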

How the data were processed

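Per the labels' protocols, total RNA was labelled as biotinylated cRNA for Affymetrix arrays of 1 colour. The deposited values are linear intensities, 1 per probe set and array, and the submitters' processing notes name MAS5. The MAS5 version is not given in the labels and notes used here. The trimmed mean was the same on all arrays. Arrays have no read depth, so precision depends on how many there are.

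Groups came from the sample titles. Values were used as log2(intensity + 16), which understates folds of dim probe sets, and probe sets at or above the 40th percentile of mean log2 (an intensity of about 101) were kept. Of 45037 probe sets that are not array controls, 34945 had 1 symbol in the platform annotation, 932 several and 9160 none, and those with several name no gene here. The members, the 25 gene lists and the call rule were chosen with earlier results of these data known, so they are no independent support. For a list gene the brightest probe set was used. Genes named are the 15 largest calls higher in rich, all named calls higher in poor, up to 4 list members by size of difference and members at background; others are given as list values or said to be named after their values were seen.

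The genotype comparison used limma 3.58.1 (R 4.3.3) with a mean-variance trend in eBayes and two-sided p-values, Benjamini-Hochberg adjusted over 27022 probe sets, and the score by exact permutation. Nothing says whether the replicates were processed apart, so p-values measure the spread between these arrays. Limma and the call rule were tested on simulated data. Promoters were searched in Python 3.11.15, and figures drawn with matplotlib 3.10.9. Alternatives were other pseudocounts, filters, scalings, group sizes, rankings, a replicate block and leaving out arrays; those without p190B replicates 1 and 3, with edge arrays exchanged, without the rich and poor calls, and all those of the covariate fit were added after seeing the data.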

Additional observations from a re-analysis of the deposited data

Results flagged for a closer look

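Among 100 groups of 4 arrays examined for a lone value (the lists, the named genes and the array measures, in rich and in poor arrays), 6 held one, where chance gives about 1 in 20. The Glycam1 probe set read 4.35 on the log2 scale on p190B replicate 1, beside 13.91 to 15.02 on the other poor arrays. Cd37 was 7.67 on control replicate 2, beside 5.36 to 5.68, and Cd209b was 9.93 on p190B replicate 3, beside 9.04 to 9.19. The macrophage list mean was 11.19 on control replicate 5, beside 11.46 to 11.51 on the other poor arrays. Among rich arrays p190B replicate 5 stood apart, with a score of 10.82 beside 11.51 to 11.54 and a median log2 intensity of 7.83 beside 7.71 to 7.73.

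The 18S rRNA control probe sets, which the comparisons do not use, were above every control array on poor p190B arrays. The 3′ probe set read 725 on p190B replicate 1 and 4266.3 on p190B replicate 3, beside at most 433 in control arrays. On p190B replicate 3 the middle probe set read 1668.5 and the 5′ probe set 1839.4, beside at most 331.1 and 269.5 in control arrays.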

How the results depend on the processing

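The count higher in rich arrays was 672 without the filter and 196 with a filter at the 60th percentile, 147 with 6 against 6 arrays and 276 with 1 probe set per gene, and omitting one array gave 435 to 488. The count higher in poor arrays was 85 without the filter, 6 at the 60th percentile and 1 with a pseudocount of 64. It was 2 with quantile normalisation, 4 with equal medians, 2 with 1 probe set per gene and 3 with the edge arrays exchanged. Group sizes of 3 against 3 arrays gave 37 and 6 against 6 gave 0, and leaving out 1 array gave 9 to 52. Fewer arrays make the rule of no overlap easier to meet, and more arrays make it harder. The score difference between genotypes reversed to 0.064 (exact permutation p = 0.909) with the T and B cell lists and to 0.89 without p190B replicates 1 and 3, and ran from −0.66 to 0.41 when 1 array was left out, reaching 0.12 without control replicate 4, 0.41 without p190B replicate 1 and 0.05 without p190B replicate 3.

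Replicate numbers did not pair the arrays: same-numbered deviations correlated between −0.29 and 0.41, and with the replicate block 0 probe sets passed limma. Without the block 10 passed; the count was 40 with the score as a covariate, 5 without the filter, 28 with quantile normalisation, 4 with equal medians, 5 without p190B replicates 1 and 3, 16 without the rich and poor calls and 4 to 9 without any 1 array. With the covariate it was 7 without the filter, 81 with quantile normalisation, 22 with equal medians, 24 with the T and B cell lists as the covariate, 1 without p190B replicates 1 and 3 and 4 to 64 without any 1 array. For named genes 403 values moved by less than the spread between arrays and 38 by more, and 0 reversed. For lists the counts were 500 and 25. The counts of 403 and 500 include alternatives that could not move a value. Other filters and 1 probe set per gene left each value as it was, and the T and B cell ranking chose the same arrays. These counts are therefore no measure of stability. List medians near 0 changed sign in 29 values over 5 of the 25 lists (alveolar and milk, fibroblast, blood vessel, Schwann cell, immediate early). A pseudocount of 64, quantile normalisation and equal medians put p190B replicate 6 in place of control replicate 2, and equal medians also control replicate 3 in place of p190B replicate 5. Other causes were not tested.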
